A study of Homo sapiens with 8 samples.

Results

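Axon guidance ligand and receptor genes were examined in ATAC-seq peak lists of HEK293T lines that carry wild-type or mutant EZH2. The members were the protein-coding genes on chromosomes 1 to 22 in GENCODE 44 whose symbols begin with SEMA3 to SEMA7, PLXN, EPHA, EPHB, EFNA, EFNB, ROBO, NTN or UNC5, together with SLIT1 to SLIT3, NRP1 and DCC. This gave 70 of 19111 genes: 20 semaphorins, 8 genes in the class of plexins and NRP1, 14 EPH receptors, 8 ephrins, 7 SLIT and ROBO genes, and 13 netrins, DCC and UNC5 genes. The symbols also took in UNC50, which is not known as a guidance gene, UNC5CL, which is named for its likeness to UNC5C, and EFNA4-EFNA3, a readthrough transcript that shares its promoter with EFNA4, so that 67 genes remained without these 3. Genes on the X chromosome and NRP2 lay outside the rule.

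Semaphorins, netrins, SLITs and ephrins are the classical guidance cues. They attract or repel growing axons and migrating cells through plexins and neuropilins, DCC and UNC5 receptors, ROBO receptors and EPH receptor tyrosine kinases. Ephrins are tethered to the membrane and signal in both directions, whereas SLITs and netrins are secreted. Many developmental genes of this kind are known targets of Polycomb repressive complex 2, in which EZH2 is the enzyme that methylates lysine 27 of histone H3, and several of them also act in kidney development and in tumour cell motility.

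The 4 lines were made by the study from HEK293T, an established line of human embryonic kidney origin, by infection with lentivirus and selection with blasticidin. The introduced EZH2 was WT in the control line and carried Y641F, A677G or the pair H689A/F667I in the others. In the study's terms the first and second mutants are gain-of-function (GOF), and the double mutant is loss-of-function (LOF). All lines, WT included, thus carry an introduced EZH2 beside the cells' own gene, each mutation is held by 1 line that the study intended as monoclonal, and the empty-vector line was not analysed here. Each line had 2 libraries, which the study calls biological replicates, so the spread between them does not cover differences between lines of 1 genotype.

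The data were broad peaks called by the authors in each library, with no read counts, and the read depth is unknown. On chromosomes 1 to 22 the WT libraries had 62739 and 60420 peaks, those of Y641F 25423 and 35380, those of A677G 36744 and 44754, and those of H689A/F667I 46317 and 47164. These numbers moved with most counts given here, and the lines and the yield of their libraries cannot be told apart. The cells were checked by promoter status: 8 of 8 HEK293T markers were open in both WT libraries and 6 in all 8 libraries, among them the neurofilament genes NEFL and NEFM. ALB and APOA1 (hepatocyte) and PTPRC, MS4A1, SPI1 and CD3E (blood) had no promoter peak in any library. COL1A1, a fibroblast gene, was open in all 8 libraries, so promoter status alone does not mark a cell type.

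A promoter was called open in a library when a peak lay within 1000 bp of any annotated transcription start site (TSS) of the gene, and closed otherwise, which means no called peak and not absence of signal. In WT, 66 and 63 of the 70 promoters were open (94.3% and 90.0%), against 74.5% and 74.0% of all protein-coding genes. The Y641F libraries had 44 and 52 open promoters (62.9% and 74.3%, all genes 61.2% and 67.8%). The A677G libraries had 56 and 61 (80.0% and 87.1%, all genes 69.6% and 71.5%), and the H689A/F667I libraries 57 each (81.4%, all genes 71.9%). Both libraries of each mutant thus lay below both WT libraries. When each library was cut to its 25423 strongest peaks, the number in the smallest list, the WT libraries had 50 and 46 open members (71.4% and 65.7%, all genes 62.1% and 61.8%) and the mutant libraries 44 to 49, so the groups overlapped. With peaks of a −log10 q of at least 5, the open members in WT were 41 and 42 (58.6% and 60.0%), against 59.7% and 58.5% of all genes, so the higher share of members was not seen among the stronger peaks.

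**Figure D1:**
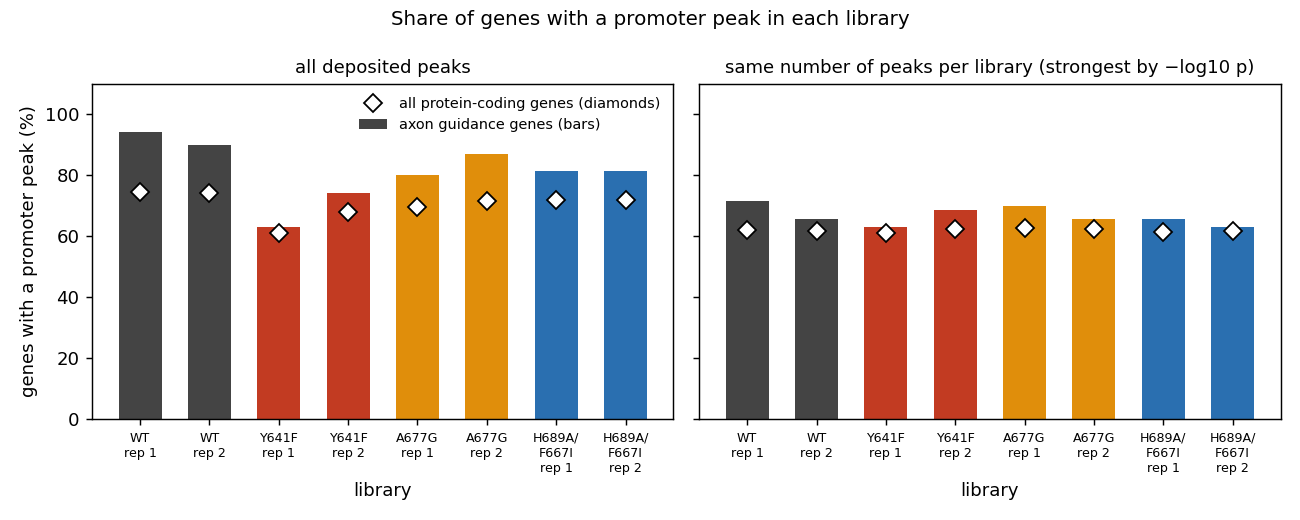
Percent of genes with a promoter peak (vertical axis) in each of the 8 libraries (horizontal axis), for the 70 axon guidance genes (bars) and for all protein-coding genes (diamonds), with all deposited peaks on the left and with 25423 peaks per library on the right. With all peaks the bars run from 62.9% in Y641F replicate 1 to 94.3% in WT replicate 1, and with equal peak numbers from 62.9% to 71.4%.

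Of the 70 promoters, 42 (60.0%) were open in all 8 libraries, close to the 59.7% of all genes. Only 3 (4.29%) were closed in all 8, against 21.7% of all genes: DCC, the netrin receptor, EFNA2, a membrane-anchored ephrin of the A class, and NTN5, a netrin-family ligand. That difference was smaller in the shorter lists: 13 members (18.6%, all genes 29.4%) were closed in all 8 libraries at equal peak numbers and 23 (32.9%, all genes 36.1%) at a −log10 q of at least 5. With all peaks, the other 25 were open in some libraries only, and 8 of these were closed in a single library. SEMA3B, SEMA3F, PLXNA4, EPHA10, NTN1, NTNG1 and UNC5B were closed only in Y641F replicate 1, the library with fewest peaks, and PLXND1 only in Y641F replicate 2. SEMA5A was open only in WT replicate 1.

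**Figure D2:**
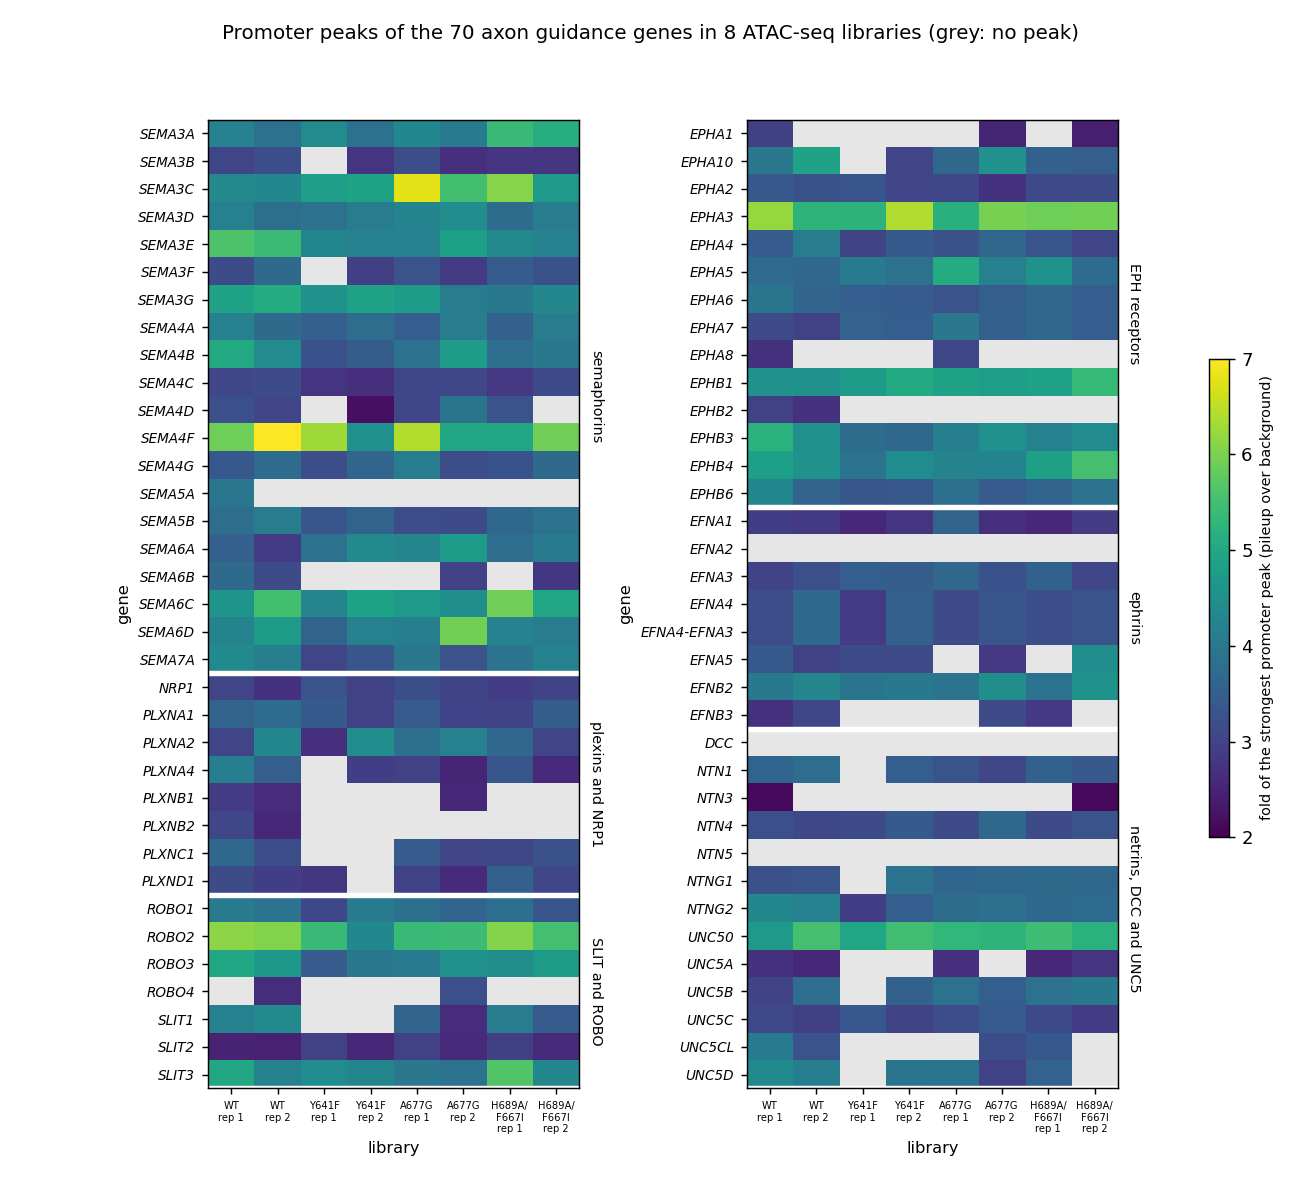
Fold of the strongest promoter peak (colour, linear scale from 2 to 7, pileup over local background as given by the authors) for each of the 70 genes (rows, by class) in each of the 8 libraries (columns), with grey where no peak was called. Grey cells are most frequent in the 2 Y641F columns, and DCC, EFNA2 and NTN5 are grey throughout.

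The guidance promoters open in WT had a lower median fold and −log10 p and a larger median summed peak width than all genes. Among the 62 members open in both WT libraries, the median fold of the strongest promoter peak was 3.70, against 4.27 for the 13867 genes open in both. Their median −log10 p, the peak caller's measure of how far a peak stands above background, was 8.42 against 11.3. This value was taken from the peak with the highest fold, which need not be the peak with the highest −log10 p. The width summed over all peaks at any annotated start site of a gene had a median of 1589 bp for members and 1276 bp for all genes. Plexins and NRP1 (median −log10 p 6.95) and netrins, DCC and UNC5 (6.47) were weakest, semaphorins (10.0) and ephrins (10.8) were intermediate, and EPH receptors (11.8) and SLIT and ROBO genes (11.9) were above the median of all genes. The widest promoters were those of the SLIT and ROBO class, with a median of 2425 bp in WT.

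Promoter sequence of the RefSeq table (GRCh38.p14, 250 bases before to 50 after the start) within 100 bp of the GENCODE canonical TSS was found for 56 members. EPHB6, SEMA4D and PLXNB2 had sequence only farther away, and EPHA10, SEMA6A, SEMA3A, UNC5D, NTNG2, NRP1, UNC5B, NTN3, EFNB3, NTN1 and SEMA6B had none in the table. The 56 promoters had a median GC content of 69.5% and a median of 27.5 CpG dinucleotides, against 64.0% and 24.0 for 13990 promoters of all genes. On either strand, GGGCGG, the GC box, was present in 48 of the 56 (85.7%), against 63.0% of all promoters. TATAAA was present in 1 (1.79% against 9.49%), CCAAT in 20 (35.7% against 36.8%), TGACGTCA in 2 (3.57% against 2.90%) and CCGGAAG in 3 (5.36% against 15.3%). Among the 3 closed promoters, EFNA2 had 85.3% GC and 47 CpG, NTN5 69.7% and 17, and DCC 58.0% and 15. DCC was thus below the median of all promoters in both measures, and NTN5 in CpG.

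The bases before the start site are shown for 4 promoters whose status differed between lines and for DCC, which was closed throughout, with CpG dinucleotides in capitals and each sequence written 5′ to 3′ along the gene.
SLIT1, chr10:97185960-97186209, minus strand: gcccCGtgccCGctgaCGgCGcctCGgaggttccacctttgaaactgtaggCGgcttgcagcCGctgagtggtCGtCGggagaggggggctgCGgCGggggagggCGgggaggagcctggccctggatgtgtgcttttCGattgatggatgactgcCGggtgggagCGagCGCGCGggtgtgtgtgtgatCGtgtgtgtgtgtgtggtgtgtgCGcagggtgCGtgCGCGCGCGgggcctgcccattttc
PLXNC1, chr12:94148327-94148576, plus strand: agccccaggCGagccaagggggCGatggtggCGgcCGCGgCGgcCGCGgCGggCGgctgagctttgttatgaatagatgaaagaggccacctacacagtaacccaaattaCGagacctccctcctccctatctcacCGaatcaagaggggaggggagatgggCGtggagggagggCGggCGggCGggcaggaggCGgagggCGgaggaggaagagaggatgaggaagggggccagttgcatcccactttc
UNC5A, chr5:176810309-176810558, plus strand: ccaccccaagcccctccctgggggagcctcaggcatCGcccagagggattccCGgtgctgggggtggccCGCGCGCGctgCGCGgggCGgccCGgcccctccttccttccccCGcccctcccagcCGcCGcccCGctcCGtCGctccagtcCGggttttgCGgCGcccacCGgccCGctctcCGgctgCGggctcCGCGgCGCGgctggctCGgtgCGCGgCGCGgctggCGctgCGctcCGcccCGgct
EPHB2, chr1:22710589-22710838, plus strand: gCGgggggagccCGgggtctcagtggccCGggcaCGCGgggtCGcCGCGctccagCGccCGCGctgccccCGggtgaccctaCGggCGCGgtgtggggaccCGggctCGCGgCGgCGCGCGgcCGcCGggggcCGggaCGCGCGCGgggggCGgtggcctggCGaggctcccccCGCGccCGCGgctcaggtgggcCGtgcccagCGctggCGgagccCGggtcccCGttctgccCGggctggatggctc
DCC, chr18:52339947-52340196, plus strand: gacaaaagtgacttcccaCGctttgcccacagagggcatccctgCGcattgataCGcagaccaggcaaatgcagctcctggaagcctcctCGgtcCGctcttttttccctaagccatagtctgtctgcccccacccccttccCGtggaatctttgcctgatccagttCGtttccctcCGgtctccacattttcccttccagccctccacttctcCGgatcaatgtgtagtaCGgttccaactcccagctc
The SLIT1 stretch holds 25 CpG in 250 bases, PLXNC1 18, UNC5A 36, EPHB2 41 and DCC 10. Over the 300 bases of the table, the 6 members lost in Y641F that had a sequence held from 3 CpG, in UNC5CL, to 48, in EPHB2, and PLXNB1 held 7.

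The first comparison asked which guidance promoters open in both WT libraries were closed in both libraries of a mutant, here called lost. In Y641F, 9 of 62 members (14.5%) were lost, where 6.72% of all genes open in WT were. They were the receptors PLXNB1, PLXNB2, PLXNC1, EPHB2 and UNC5A, the ligands SLIT1, EFNB3 and SEMA6B, and UNC5CL. In A677G, 2 members were lost (3.23%, all genes 2.22%), EPHB2 and PLXNB2. In H689A/F667I, 3 were lost (4.84%, all genes 1.50%), EPHB2, PLXNB1 and PLXNB2. No member was gained, that is closed in both WT libraries and open in both mutant libraries, but only 3 members could be. Y641F gained 0.240% of all genes, A677G 0.327% and H689A/F667I 0.632%. There was no member open in all WT and H689A/F667I libraries and closed in all 4 GOF libraries, a pattern that 0.303% of all genes showed.

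Lost promoters were weak ones in WT. When the genes open in both WT libraries were divided into 5 equal groups by WT −log10 p, 22 of the 62 members fell in the weakest group and 5 in the strongest. In the weakest group Y641F had lost 8 of 22 members (36.4%, all genes 29.3%), A677G 2 (9.09%, all genes 10.6%) and H689A/F667I 3 (13.6%, all genes 7.10%). Outside it the only lost member was SLIT1, in Y641F. With 25423 peaks in each library, 1 of 43 members was lost in Y641F (2.33%, all genes 2.18%), which was SLIT1, and none in A677G (all genes 1.15%) or H689A/F667I (all genes 1.23%). The gained members were then NTN4 in Y641F (all genes 3.57%) and NTNG1 in A677G (all genes 3.24%), with none in H689A/F667I (all genes 2.11%).

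When a library was left out, a count of lost members could only rise or stay the same, because the rule then asked for less. Without Y641F replicate 2, 18 of 62 members were lost in Y641F (all genes 16.2%). Without A677G replicate 2, A677G had lost 7 (all genes 5.31%), and without WT replicate 2 it had lost 4 of 66 (all genes 4.04%). The 3 losses of H689A/F667I became 7 without its replicate 1 (all genes 2.96%), 5 without its replicate 2 (all genes 3.06%) and 5 without WT replicate 2 (all genes 3.04%).

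**Figure D3:**
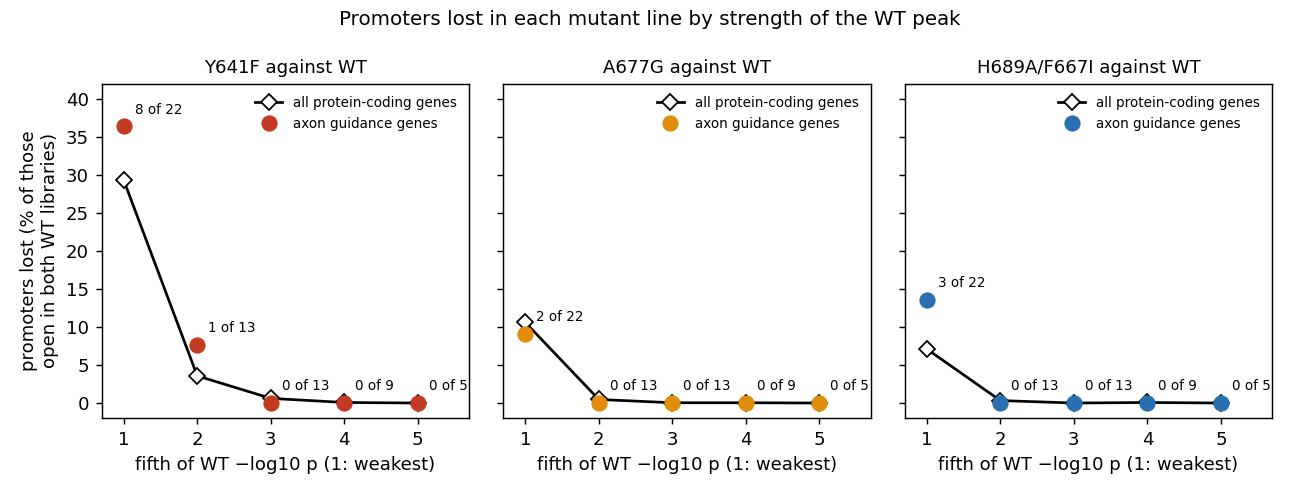
Percent of promoters open in both WT libraries that were closed in both libraries of a mutant (vertical axis) in 5 equal groups of genes by WT −log10 p (horizontal axis, 1 weakest), for all protein-coding genes (diamonds and line) and for the axon guidance genes (filled circles, with the number lost of the number in the group). Losses lie almost wholly in group 1, where Y641F had lost 36.4% of members, A677G 9.09% and H689A/F667I 13.6%.

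SLIT1 encodes a secreted ligand that repels axons through ROBO receptors, and lies on chromosome 10 at 96998038 to 97185959 on the minus strand. Its promoter peak had a fold of 4.20 and 4.39 in WT, 3.59 and 2.64 in the A677G libraries and 4.10 and 3.43 in those of H689A/F667I, and no peak was called in either Y641F library. The −log10 p was 9.11 and 10.1 in WT, 6.08 and 3.56 in the A677G libraries and 7.42 and 5.63 in those of H689A/F667I. All 6 peaks lay on or just beside the canonical TSS, and in WT replicate 1 the peak spanned 97185456 to 97186100. The 4 A677G and H689A/F667I libraries were below both WT libraries in fold and in −log10 p. SLIT1 was the one member called lost in Y641F with all peaks, with equal peak numbers and at a −log10 q of at least 5. At that stricter limit it was lost in A677G and H689A/F667I as well, where 15.6% and 10.6% of all genes were. Of its 5 gene-body regions open in both WT libraries, 4 were closed in both libraries of Y641F, 2 in both of A677G and 3 in both of H689A/F667I, where 45.2%, 27.0% and 18.7% of the gene-body regions of all genes were.

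PLXNC1 encodes the plexin that binds SEMA7A, and its promoter was likewise closed in both Y641F libraries and open in the 6 others. The fold was 3.68 and 3.21 in WT, 3.44 and 3.05 in the A677G libraries and 3.07 and 3.24 in those of H689A/F667I, and the ranges of these lines overlapped. The peaks spanned 762 to 1825 bp across the canonical TSS at 94148577 on chromosome 12. This pattern, 6 open libraries and both Y641F libraries closed, was seen in 2 of 62 members (3.23%) and in 2.23% of all genes open in WT.

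UNC5A, a netrin receptor that mediates repulsion, had a fold of 2.71 and 2.56 in WT, 2.69 in A677G replicate 1, and 2.56 and 2.77 in H689A/F667I, and was closed in both Y641F libraries and in A677G replicate 2. Where called, the peaks were weak in every line, with a −log10 p of 4.17 to 4.87. EPHB2, a receptor for B-class ephrins, and PLXNB2, a receptor for class 4 semaphorins, were open in the WT libraries only. EPHB2 had a fold of 2.98 and 2.74 and a −log10 p of 4.06 and 3.27, and PLXNB2 a fold of 3.07 and 2.58 and a −log10 p of 7.15 and 4.86. The weakest peak in the lists had a −log10 p of 2.92 and 2.93 in WT and 3.31 and 3.17 in Y641F. It was 3.05 to 3.16 in the A677G and H689A/F667I lists. The second EPHB2 value lay below the weakest peak of Y641F replicate 1 but above that of every other library. The first lay above all of them. Whether the limits of the lists bear on these closures was not tested. Closure in all 6 mutant libraries was found for 3.23% of the members open in WT and for 0.678% of all such genes.

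PLXNB1, another receptor for class 4 semaphorins, had a fold of 2.86 and 2.64 in WT and 2.56 in A677G replicate 2, and no peak elsewhere. That A677G peak lay upstream of the canonical TSS and the WT peaks downstream of it, so they did not overlap. EFNB3, a transmembrane ephrin, had a fold of 2.74 and 3.07 in WT, 3.15 in A677G replicate 2 and 2.83 in H689A/F667I replicate 1. SEMA6B, a transmembrane semaphorin, had a fold of 3.72 and 3.17 in WT, 2.96 in A677G replicate 2 and 2.82 in H689A/F667I replicate 2, in a peak 2348 to 2680 bp from the canonical TSS at another annotated start. UNC5CL had narrow peaks of 213 to 360 bp with a fold of 4.08 and 3.27 in WT, 3.20 in A677G replicate 2 and 3.38 in H689A/F667I replicate 1. For each of these 4 genes, 1 library of A677G was open, and for the last 3 also 1 of H689A/F667I.

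**Figure D4:**
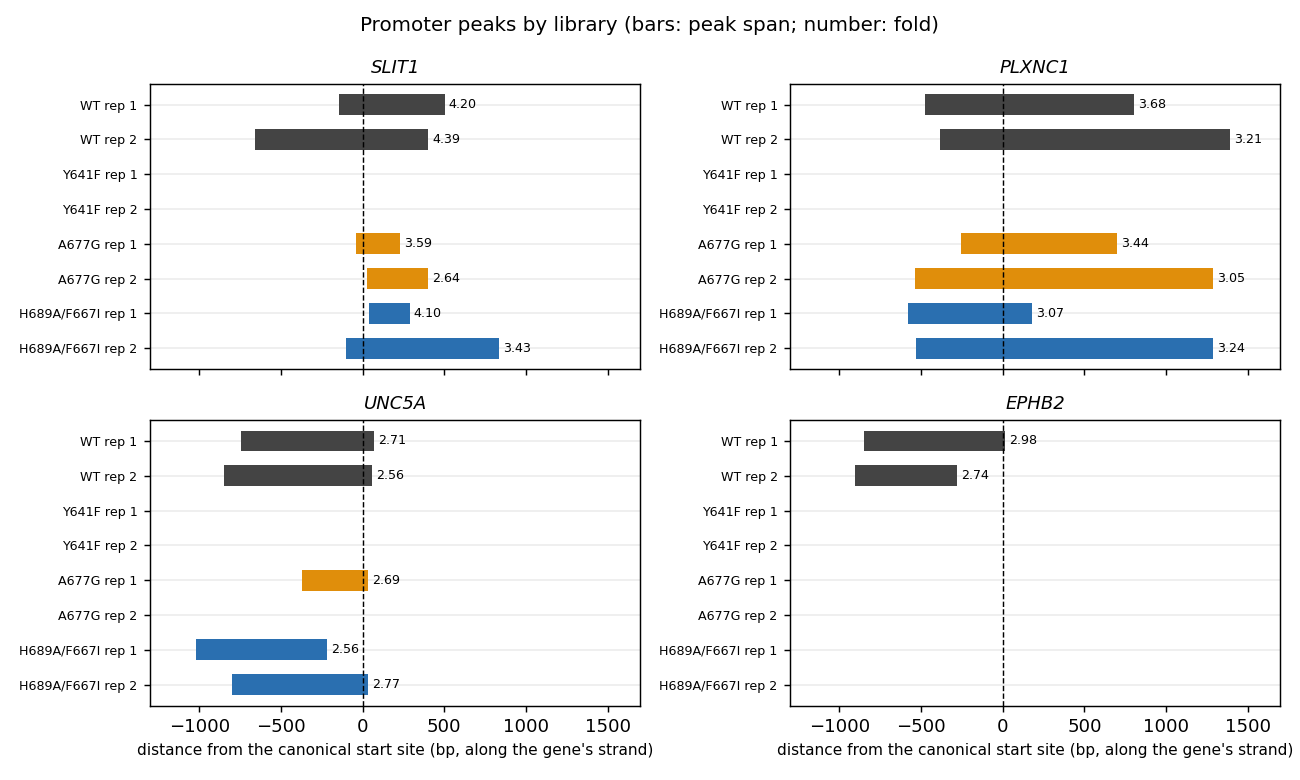
Span of the promoter peaks of SLIT1, PLXNC1, UNC5A and EPHB2 (bars) by distance from the canonical start site in bp along the gene's strand (horizontal axis) in each of the 8 libraries (rows), with the fold of each peak beside its bar. Both Y641F rows are empty in the 4 panels, and the EPHB2 panel has bars in the WT rows only.

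Among members open in both WT libraries, the highest WT folds belonged to SEMA4F, a class 4 semaphorin (5.90 and 7.02), ROBO2, a SLIT receptor (6.13 and 6.05), EPHA3, a receptor for A-class ephrins (6.20 and 5.25), SEMA3E, a secreted ligand of PLXND1 (5.60 and 5.40), and UNC50 (4.71 and 5.53). These 5 were open in all 8 libraries. SEMA4F ranged from 4.51 to 6.43 in the mutants and EPHA3 from 5.17 to 6.41, both overlapping WT. SEMA3E was lower in all 6 mutant libraries, at 4.19 to 4.84. The lowest WT fold was that of SLIT2, 2.47 and 2.46, with 2.57 to 2.97 in the mutants; UNC5A, PLXNB1, PLXNB2 and EPHB2 followed.

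The widest WT promoters were those of ROBO1, the canonical SLIT receptor (4582 and 4782 bp in summed peak width), EPHA4 (3916 and 3061 bp), EFNA5 (3288 and 3644 bp), SEMA4B (3420 and 3318 bp) and SEMA6D (3267 and 3360 bp). Y641F replicate 1 had 969 bp at ROBO1 and 1250 bp at SEMA4B, where replicate 2 had 3698 and 2974 bp. SEMA6D, a transmembrane semaphorin, measured 1256 and 1494 bp in Y641F, 447 and 1067 bp in A677G, and 3249 and 2992 bp in H689A/F667I. Its 4 GOF libraries were thus below its 4 WT and H689A/F667I libraries. EFNA5 was closed in A677G replicate 1 and H689A/F667I replicate 1, and its H689A/F667I replicate 2 peak of 220 bp lay at an internal start site.

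Where a promoter peak was present in all 8 libraries, its fold and width could be tested with limma on log2 values, each library centred on its median over 11404 genes, of which 42 were members. No member passed an adjusted p of 0.05 for fold or width in any of 4 contrasts. For fold, the genes called were 2.47% in Y641F against WT, 0% in A677G against WT, 0% in H689A/F667I against WT, and 0.0789% in the mean of the GOF lines against the mean of WT and H689A/F667I. For width the same contrasts called 0.132%, 0.00877%, 0% and 0%. At an unadjusted p under 0.05, limma gave 11, 6, 7 and 10 members for fold and 4, 7, 1 and 6 for width, in the same order; over all genes these were 22.1%, 14.1%, 8.65% and 18.2% for fold and 19.8%, 7.57%, 4.80% and 15.3% for width. The median difference of members from WT in fold was 0.00, -0.02 and -0.04 on the log2 scale for Y641F, A677G and H689A/F667I, with a median standard error of 0.11.

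The member nearest to the threshold was SEMA6A, a transmembrane semaphorin that acts through A-class plexins. Its fold was 3.53 and 2.89 in WT, 3.89 and 4.37 in Y641F, 4.27 and 4.73 in the A677G libraries and 3.79 and 4.04 in those of H689A/F667I. All 6 mutant libraries were above both WT libraries. The log2 difference was 0.48 ± 0.12 (SE) in Y641F (limma adjusted p = 0.0513), 0.54 ± 0.12 in A677G (adjusted p = 0.108) and 0.32 ± 0.12 in H689A/F667I (adjusted p = 0.479). WT replicate 1 had 2 promoter peaks with a summed width of 1986 bp, and WT replicate 2 had 1 of 3037 bp. The 6 mutant libraries had 2 peaks each, with 1437 to 1606 bp, so the higher fold went with a smaller width. A link between fold and width was not tested.

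EPHA7, an ephrin receptor, had a fold of 3.14 and 2.98 in WT and 3.49 to 3.99 in the 6 mutant libraries, with a limma adjusted p of 0.0898 in Y641F. SEMA3C, a secreted semaphorin, had 4.36 and 4.34 in WT and 6.79 and 5.49 in A677G (log2 difference 0.54 ± 0.13, limma adjusted p = 0.139). Its summed width was 1482 and 1797 bp in WT and 498 and 797 bp in A677G. SEMA3A, the founding repellent of its class, had a fold of 4.21 and 3.89 in WT and 5.37 and 5.12 in H689A/F667I (0.40 ± 0.11, limma adjusted p = 0.326). These folds were higher than in both WT libraries, but none was past the threshold.

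Lower values were seen at SEMA4B, with 5.03 and 4.41 in WT and 3.26 and 3.47 in Y641F (limma log2 difference -0.37 ± 0.12, adjusted p = 0.0934), and at SEMA7A, a membrane-anchored ligand, with 4.38 and 4.13 in WT and 3.04 and 3.33 in Y641F (-0.31 ± 0.11, adjusted p = 0.12). NTNG2, a membrane-anchored netrin, had 4.31 and 4.21 in WT and 2.93 and 3.50 in Y641F (-0.30 ± 0.10, adjusted p = 0.103). Without centring, these 3 of 42 members (7.14%) and 5.68% of all genes passed the threshold in Y641F, where the library medians of log2 fold were 2.01 and 2.06 against 2.14 and 2.15 in WT. SEMA3E was lower in H689A/F667I (-0.33, limma adjusted p = 0.401) and SEMA5B in A677G (-0.27, limma adjusted p = 0.225). EPHA5, in contrast, was higher in A677G (0.36, limma adjusted p = 0.221). The width of SEMA6D differed by -1.87 ± 0.34 in A677G from WT (limma adjusted p = 0.252) and by -1.35 ± 0.24 in the GOF contrast (adjusted p = 0.115). With the canonical TSS alone the A677G difference was called, as for 0.0472% of all genes.

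NTN4, a laminin-related netrin, is the member that the study lists among targets shared by the GOF mutants, a list chosen partly on these libraries. That list asked for lower transcript levels, lower accessibility and more H3K27me3 together, each at a q under 0.05. The peak values given here do not test it. Its promoter was open in all 8 libraries, with a fold of 3.23 and 3.09 in WT, 3.16 and 3.42 in Y641F, 3.16 and 3.67 in the A677G libraries and 3.16 and 3.27 in those of H689A/F667I, ranges that overlapped. Its summed width was 1902 and 2006 bp in WT and 878 to 1469 bp in the 6 mutant libraries, all below WT, with a limma adjusted p of 0.627 in A677G. Of its gene-body regions, 3 were open in both WT libraries and none was lost in any mutant. NRP2, the neuropilin that the rule leaves out and the study lists as well, was open in all 8 libraries, with a fold of 3.95 and 5.17 in WT and 4.01 to 4.58 in the mutants. Its summed width was 1503 and 916 bp in WT and 419 and 808 bp in Y641F, both below WT. In the A677G and H689A/F667I libraries it was 621 to 1118 bp, a range that overlapped WT.

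Inside the genes, the share of WT regions lost was near that of all protein-coding genes. Peaks of the 8 libraries were merged, and 519 regions lay in the bodies of members outside their promoter windows. Both WT libraries had a peak at 219, among which 201 were intronic and 18 touched an exon. Of the 219, 52 were open in all 8 libraries, a count for which no share over all genes was taken. ROBO1, ROBO2 and SLIT3 had 17 regions each that were open in both WT libraries, SEMA3C 15 and PLXNA4 13. These are long genes of 179.8 to 1743.3 kb. Y641F had lost 95 of the 219 (43.4%), A677G 56 (25.6%) and H689A/F667I 40 (18.3%). Over the gene bodies of all protein-coding genes the shares were 45.2%, 27.0% and 18.7%, so the guidance genes were near the background in each line.

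Between classes the shares differed, on small numbers and with no test. In Y641F, 16 of 30 regions of plexins and NRP1 were lost (53.3%), 32 of 63 of SLIT and ROBO genes (50.8%), 17 of 34 of EPH receptors (50.0%), 15 of 40 of semaphorins (37.5%), 12 of 36 of netrins, DCC and UNC5 genes (33.3%) and 3 of 16 of ephrins (18.8%). H689A/F667I had lost 1 of 36 regions in the netrin, DCC and UNC5 class (2.78%) and 16 of 63 in the SLIT and ROBO class (25.4%). ROBO2 had lost 11, 8 and 8 of its 17 regions in Y641F, A677G and H689A/F667I, and 6 of them were closed in all 6 mutant libraries. SLIT3 had lost 9, 1 and 3 of 17, and ROBO1 8, 8 and 2 of 17. None of the 7 such regions of SLIT2 was lost in any mutant, nor any of the 3 regions of EPHA4.

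**Figure D5:**
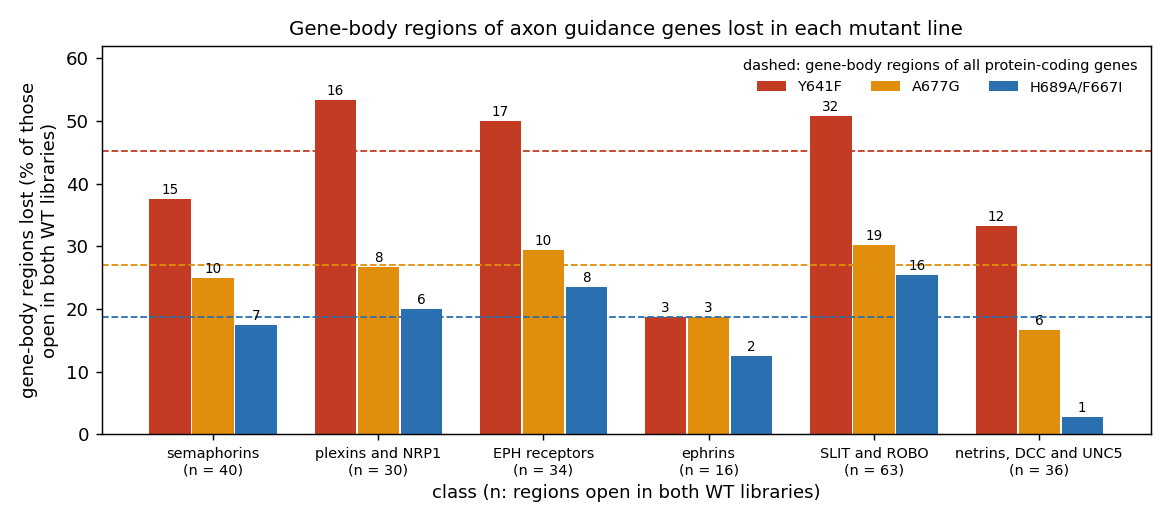
Percent of gene-body regions open in both WT libraries that were closed in both libraries of a mutant (vertical axis), by class of guidance gene (horizontal axis) and line (colour), with the number lost above each bar and the share over all protein-coding genes as dashed lines. Ephrins (18.8%) and netrins, DCC and UNC5 genes (33.3%) lie below the dashed line of Y641F, and plexins and NRP1 (53.3%) above it.

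Across all members, 24 of 219 gene-body regions present in both WT libraries had no peak in any of the 6 mutant libraries (all genes 11.2%), and 6 were open in WT and H689A/F667I and closed in all 4 GOF libraries (2.74%, all genes 3.21%). The 6 lay in introns of ROBO1, EPHA5 (2 regions), UNC5C, SEMA3E and PLXNB2, the longest being that in ROBO1 at 78866845 to 78868830 on chromosome 3. These regions were chosen after their values were seen. Gained regions numbered 0 of 122 in Y641F (all genes 1.04%), 6 in A677G (4.92%, all genes 1.57%) and 3 in H689A/F667I (2.46%, all genes 2.73%). Those gained in A677G were in EPHA6 (2 regions), SLIT2, SLIT3, EFNA5 and SEMA3A, all intronic. Losses of regions, too, could only rise or stay the same when a library was left out. Without WT replicate 1, Y641F had lost 178 of 307 regions (58.0%, all genes 58.0%), A677G 133 (43.3%, all genes 42.8%) and H689A/F667I 117 (38.1%, all genes 34.7%). Without WT replicate 2, the 3 lines had lost 177, 131 and 112 of 309 (57.3%, 42.4% and 36.2%, all genes 59.4%, 44.5% and 36.5%). Without A677G replicate 2, A677G had lost 104 of 219 (47.5%, all genes 45.5%). H689A/F667I had lost 63 (28.8%, all genes 29.7%) or 75 (34.2%, all genes 30.6%) without its own replicate 1 or 2. With equal peak numbers the losses were 9, 4 and 6 of 67 (13.4%, 5.97% and 8.96%, all genes 20.7%, 11.5% and 10.0%).

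The closed promoters had open regions nearby in some cases. DCC, whose body spans 1195.7 kb on chromosome 18, had 1 intronic region open in both WT and both H689A/F667I libraries and closed in both Y641F libraries. EFNA2 and NTN5 each had 1 exonic region, open in both WT libraries and lost in no mutant.

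Other genes of the pathway were compared from a list of 73 genes: 16 co-receptors and cues, 11 adhesion molecules and 46 intracellular effectors. Of these, 62 were open in all 8 libraries (59.7% of all genes) and 71 in both WT libraries (72.6% of all genes). Y641F had lost 5, A677G 1 and H689A/F667I 1, with none gained, where 6.72%, 2.22% and 1.50% of all genes were lost. The effectors were the most widely open, 42 of 46 in all 8 libraries. Those lost in Y641F, named after their values were seen, were CRMP1 and LIMK1 among the effectors, which act on microtubules and on actin. The others were SHH and VANGL2 in the group of co-receptors and cues, and the adhesion molecule CHL1. In the limma fit of fold, 1 of the 62 rose and 1 fell in Y641F, where 2.47% of all genes were called. They were CDC42, a small GTPase of the cytoskeleton (log2 difference 0.45 ± 0.10, limma adjusted p = 0.0468), and PAK4, a kinase downstream of it (-0.59 ± 0.11, limma adjusted p = 0.0317). None was called in the other contrasts or for width.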

How the data were processed

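ATAC-seq was performed by the authors in 8 libraries, 2 for each of 4 HEK293T lines. Per the study's methods and the submitters' processing notes, the authors trimmed reads with Trim Galore 0.6.5, aligned them to GRCh38/hg38 with BWA 0.7.17, removed duplicates and called peaks with MACS2 2.2.7.1. The deposited lists hold broad peaks called in each library separately, and the lowest −log10 q was 1.00 in each. The deposited fold is a ratio of pileup to local background, and the deposited −log10 p and −log10 q measure each peak's strength. The deposited score column repeats strength on another scale and was not used. The read shift for the transposase, the removal of mitochondrial reads and the read depth are not given in the sources used here, and the number of peaks per library is the measure of yield.

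Groups and replicate numbers came from the sample titles. The members and the gene lists were chosen with earlier results of these data known. Peaks on chromosomes 1 to 22 were assigned with an overlap of at least 1 bp to windows of 1000 bp around every TSS of GENCODE 44, and the peak with the highest fold gave a promoter's fold and −log10 p. Peaks of all libraries were merged into 98302 regions for the gene bodies. Fold and summed width were tested on the log2 scale with limma 3.58.1 in R 4.3.3 over 11404 genes with a peak in all 8 libraries, with group means only, 1 spread estimate for all libraries, centring on library medians and Benjamini-Hochberg adjustment over all genes at 0.05. Presence calls had no test. The promoter status of 1 marker gene of another cell type is not reported here. With 2 libraries a line, p-values measure the spread between libraries of 1 line. The fit was first tested on simulated data with known changes. The study's own differential test needs read counts and was not run here.

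The members named were those lost or gained in a mutant, the 5 with the highest and the 5 with the lowest WT fold, the 5 widest, the 5 with most gene-body regions, those closed in all libraries, NTN4 and NRP2 from the study's list, and those with the lowest p in limma. Alternatives were a −log10 q of at least 5, equal peak numbers, a window of 500 bp, an overlap of 200 bp, canonical TSSs, the peak nearest to a TSS, no centring, quantile normalization, a peak in at least 6 libraries, a replicate block and leaving out each library. Leaving out UNC50, UNC5CL and EFNA4-EFNA3 was added after the data were seen.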

Additional observations from a re-analysis of the deposited data

How the results depend on the processing

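At equal peak numbers 1 member was lost in Y641F, 0 were in A677G and 0 in H689A/F667I (all genes 2.18%, 1.15% and 1.23%), members gained were 1 in Y641F and 1 in A677G (all genes 3.57% and 3.24%), and gene-body regions lost were 9, 4 and 6. At a −log10 q of at least 5, Y641F had lost 11 of 36 members (30.6%, all genes 29.4%), so its share was near that of all genes. A677G had lost 5 (13.9%, all genes 15.6%) and H689A/F667I 4 (11.1%, all genes 10.6%). Of the 11, only SLIT1 was also lost in Y641F with all peaks. At this limit, gene-body regions lost were 33, 21 and 18 of 54 (61.1%, 38.9% and 33.3%, all genes 58.2%, 39.9% and 28.5%). By width, limma then called 1 of 16 members in Y641F (all genes 1.30%) and 1 in A677G (all genes 0.243%), SEMA6A in both. With the canonical TSS alone, 6 of 58 members were lost in H689A/F667I (10.3%, all genes 1.70%), and 1 was called by width in A677G. Without centring, limma called 3 of 42 members by fold in Y641F (7.14%, all genes 5.68%), and by width 6 in Y641F (14.3%, all genes 13.7%) and 3 in the GOF contrast (7.14%, all genes 4.25%). The library medians of log2 width were 9.62 and 9.95 in Y641F and 10.41 and 10.39 in WT.

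Leaving out each library in turn, members lost ranged from 10 to 18 in Y641F, 2 to 7 in A677G and 4 to 7 in H689A/F667I. Over all genes the shares lost were 7.59% to 16.2%, 3.27% to 5.31% and 2.71% to 3.06%. By the rule for a loss, these counts could not fall. Gene-body regions lost ranged from 111 to 178, 71 to 133 and 63 to 117 in the same order. Over all genes these shares were 49.7% to 68.6%, 34.8% to 45.5% and 29.7% to 36.5%. Without its own replicate 1 or 2, Y641F had lost 111 (50.7%, all genes 49.7%) or 132 (60.3%, all genes 68.6%) of 219. Members called by width ranged from 0 to 1 in Y641F and from 0 to 1 in the GOF contrast, the 1 being SEMA4C without Y641F replicate 2 (all genes 3.47% and 1.03%). An arm left with 1 library is assumed by limma to vary like the others.

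The replicate block called 0 members by fold and by width in each contrast, as did the fit without it. Replicate 1 deviations of different lines had correlations between -0.011 and 0.056 over 11404 genes, so the numbers do not pair the libraries. The share of members lost stood above that of all genes with all peaks in each line, and below it in A677G at equal peak numbers and at a −log10 q of at least 5, and in H689A/F667I at equal peak numbers. Of 230 recomputed counts of members or regions, 194 stayed within 1.5 times the reported count and 36 did not. The unknown read depth limits every statement on a closed promoter, and the cause of these shifts was not tested.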
